A study of Mus musculus with 21 samples.

Results

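Classical Ly6c2 monocytes were taken from the tumor microenvironment (TME) of melanoma primary tumors and lung metastases and from unchallenged lung of mice. A cell belonged to them if it carried a UMI, a tag that stands for 1 captured RNA molecule, of at least 3 of the 5 genes *Plac8*, *Ms4a4c*, *Ly6c2*, *F13a1* and *Ccr2*. It also had to carry a UMI of fewer than 2 of the macrophage genes *C1qa*, *C1qb* and *C1qc*, of fewer than 2 of the nonclassical monocyte genes *Cd300e*, *Treml4* and *Adgre4*, and none of *Cd79a* (B cells), *Trac* (T cells), *Pecam1* (endothelium) or *Col1a2* (fibroblasts). With every cell counted once, 3064 of 51511 cells met this rule, which is 5.95%. The cells were chosen by the measured UMIs of these 15 genes, so their levels are given below as a description and without a test.

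Classical monocytes are blood cells that leave the bone marrow through the chemokine receptor CCR2 and enter inflamed tissue and tumors. There they can lose their Ly6C surface protein and turn into macrophages or dendritic cells, while in blood some become nonclassical monocytes that patrol vessel walls. In mouse tumors they are known as a source of tumor-associated macrophages, and in lung they are found in vessels and in the tissue between the alveoli.

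The mice were mT/mG hosts, in which a transgene at the Rosa26 locus gives every cell a membrane-bound red protein, tdTomato, and no Cre was present. Fragments of the MT-ret melanoma, expanded in mice and biobanked, carry no tdTomato and were transplanted under the skin of male and female mice 8 to 10 weeks old. Primary tumors were resected at a fixed volume and lung metastases were collected later, while unchallenged lungs carried no tumor; the strain and age of their donors are not given in the sources used here, and the sample labels list lung as the tissue of the primary tumors too. Frozen cells were sorted as living tdTomato+ or as living tdTomato+ CD45-, and as CD45 marks all leukocytes, a sort of the second kind removes most monocytes; which gate a library had is not given.

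Unchallenged lung held 31, 108, 361 and 2359 classical monocytes in replicates 1, 4, 5 and 6. Lung metastasis held 34 in replicate 1-3, a pool of 2 mice, and 3, 5 and 10 in replicates 4, 5 and 6. Primary tumor held 92 in replicate 1-3, a pool of 3 mice that includes both of the metastasis pool, 61 in replicate 4 and 0 in replicates 5 and 6. Replicate 6 of unchallenged lung alone therefore supplied most of the cells, and 2 tumor libraries supplied none. Gene levels were compared between libraries, not cells, in the 8 libraries with at least 10 monocytes, which are 4 of unchallenged lung and 2 of either tumor site. Both tumor sites were compared with the same 4 unchallenged lung libraries.

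Of 5893 cells with UMIs of 3 or more of the 5 markers, the C1q condition removed 810, the nonclassical condition 656 and the other-lineage condition 1363. The conditions were counted in this order, and a cell that failed several was counted under the first. The C1q condition weighed unequally on the tissues: it removed 3.68% of such cells in unchallenged lung, 23.0% in lung metastasis and 75.4% in primary tumor. In primary tumor replicate 4 it removed 536 of 614 cells. In that library 80.1% of cells with a *Col1a2* UMI and 75.7% of cells with a *Pecam1* UMI also carried at least 2 C1q genes, so C1q RNA was found with cells of other types there. Just inside the threshold, 20 to 1326 monocytes of unchallenged lung replicates 4, 5 and 6 carried exactly 3 markers, and just outside it, 3084 cells with 2 markers met every other condition. All 5 markers were found in 83.9%, 63.9%, 60.4% and 11.7% of the monocytes of unchallenged lung replicates 1, 4, 5 and 6, in 38.2% and 20.0% of those of lung metastasis replicates 1-3 and 6 and in 48.9% and 44.3% of those of primary tumor replicates 1-3 and 4.

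Unchallenged lung replicate 6 stood apart from the other libraries. Its monocytes had a median of 1746 UMIs, against 6325 to 12091 in the other 7 libraries compared. Of its cells with a *Pecam1* UMI 15% carried at least 3 monocyte markers, against 1.31% to 4.58% in the other unchallenged lung libraries and 18.3% and 15.6% in primary tumor replicates 1-3 and 4. The club cell gene *Scgb1a1* stood at 18292 CPM (UMIs scaled to a library of 1000000 UMIs) in its monocytes, so RNA of other cells was present in them, and results are given without it where it decides them. Lung metastasis replicate 6 holds 10 monocytes, so 1 UMI there amounts to 9.77 CPM. Its cells were deposited under 3 names that give 3 different mice, 1 of them as a melanoma cell library, and those of lung metastasis replicate 5 and of primary tumor replicates 5 and 6 under 2 names and 2 mice each, so the mouse behind these 4 libraries is not certain. No doublet caller was run, and at most 48 cell barcodes were shared by any pair of libraries. Apart from these and the pools each library came from 1 mouse by its deposited name, and the spread between libraries is biological and technical at once.

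The 5 marker genes of the rule were found in all 8 libraries. As the rule asks for at least 3 of them in a cell, their levels are set in part by the gate. *Ly6c2*, which encodes the Ly6C surface protein, stood at 1253, 1824, 1322 and 961 CPM in unchallenged lung replicates 1, 4, 5 and 6, at 566 and 264 in lung metastasis replicates 1-3 and 6 and at 1031 and 718 in primary tumor replicates 1-3 and 4. These CPM values are summed over the monocytes of a library and scaled with TMM factors, as are all gene levels below unless stated. Lung metastasis was thus the tissue with the lowest *Ly6c2*, with both of its libraries under the other 6. A *Ly6c2* UMI was found in 55.9% and 40.0% of monocytes of lung metastasis replicates 1-3 and 6. The share was 70.7% and 70.5% in primary tumor replicates 1-3 and 4 and 79.3% to 90.3% in unchallenged lung. Reads of *Ly6c2* and of its near copy *Ly6c1* on the same chromosome can be hard to separate. *Ccr2*, the receptor for CCL2, lay between 828 and 1585 CPM in unchallenged lung, at 987 and 909 in lung metastasis and at 1033 and 1152 in primary tumor, so the tissues overlapped. *F13a1*, the A subunit of coagulation factor XIII, lay between 510 and 981 CPM in unchallenged lung, at 825 and 919 in lung metastasis and at 558 and 422 in primary tumor. *Ms4a4c* reached 253 to 898 CPM in unchallenged lung, 303 and 205 in lung metastasis and 473 and 529 in primary tumor. *Plac8* reached 1551 to 4399 CPM in unchallenged lung, 3173 and 2326 in lung metastasis and 2685 and 2566 in primary tumor. Among the genes that excluded cells, *C1qa* lay between 0 and 19.8 CPM in unchallenged lung, at 4.39 and 29.3 in lung metastasis and at 30.6 and 63.1 in primary tumor. *Adgre4*, an adhesion receptor of nonclassical monocytes, lay between 61.5 and 108 CPM in unchallenged lung, at 43.9 and 58.6 in lung metastasis and at 22.0 and 24.3 in primary tumor.

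**Figure D1:**
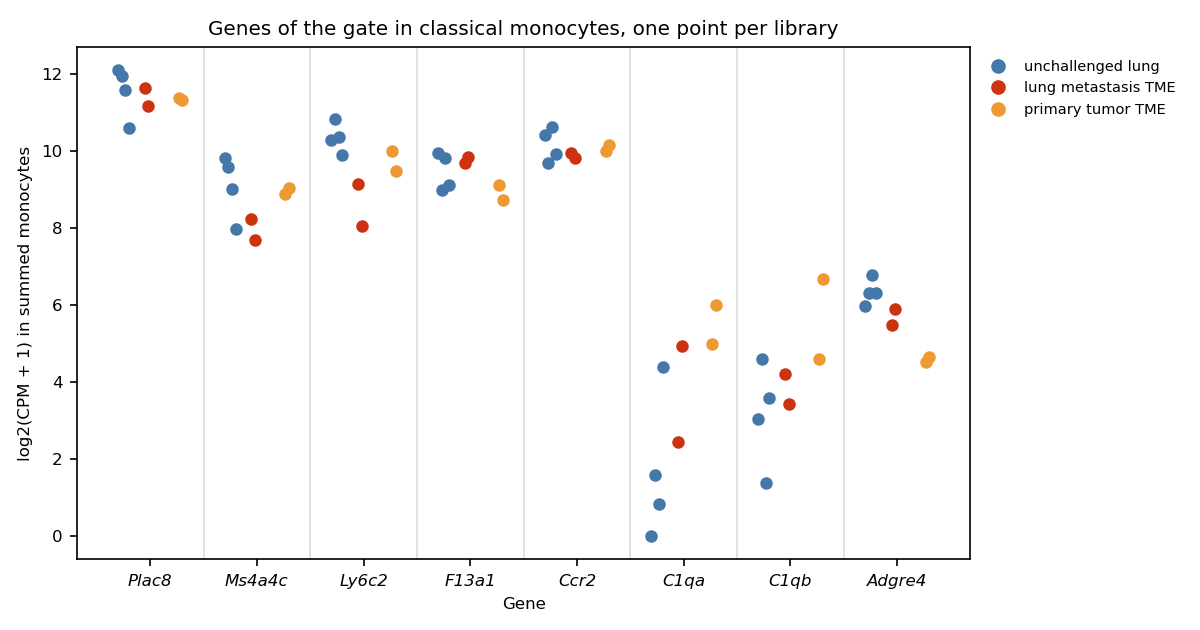
Levels of genes of the cell rule in classical monocytes as log2(CPM + 1), 1 point per library, in unchallenged lung (blue, 4 libraries), lung metastasis TME (red, 2) and primary tumor TME (orange, 2). The 5 markers are high in every library, *C1qa* is highest in primary tumor replicate 4 at 63.1 CPM, and *Ly6c2* is lowest in the lung metastasis libraries at 566 and 264 CPM.

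RNA of other cell types was measured in the summed monocytes with marker lists, on the CPM scale without TMM scaling. The melanoma list summed to 0 to 3.52 CPM in unchallenged lung, 162 to 611 in lung metastasis and 214 to 505 in primary tumor, with *Mlana* at 0 in the 4 tumor libraries. *Dct*, the most abundant of these melanoma genes, was called higher at both sites with log2 fold changes of 8.10 ± 0.71 and 8.18 ± 0.67 (SE). After thinning every cell to 1000 UMIs, a *Dct* UMI was found in 8.82% and 60.0% of monocytes of lung metastasis replicates 1-3 and 6 and in 18.5% and 14.8% of those of primary tumor replicates 1-3 and 4. Cells with a *Pecam1* UMI had 27.2%, 66.8%, 22.8% and 22.1% in the same order, so the share in monocytes lay below the share in cells that should lack the gene. How the *Dct* RNA came to the monocytes was not tested. UMIs of 2 or more melanoma genes were found in 6 of 34 and 8 of 10 monocytes of lung metastasis replicates 1-3 and 6. In primary tumor replicates 1-3 and 4 it was 38 of 92 and 6 of 61. In primary tumor replicate 1-3, 1 monocyte held 193 of the 327 *Dct* UMIs (59.0%), against 16.7% to 18.8% in the highest cell of the other tumor libraries. The neutrophil list summed to 89.5 to 5482 CPM in unchallenged lung, with *S100a8* and *S100a9* as the main genes. It summed to 9464 and 191 in lung metastasis replicates 1-3 and 6 and to 77.7 and 1827 in primary tumor replicates 1-3 and 4. *Ly6g* was at 0 in 3 of the 4 tumor libraries. The exception was lung metastasis replicate 1-3, where all 8 neutrophil genes had UMIs and the other cells of the library summed to 10204 CPM. UMIs of 2 or more neutrophil genes were found in 17 of 34 monocytes of lung metastasis replicate 1-3, against 2.78% to 72.8% in unchallenged lung. The NK cell gene *Gzma*, a granzyme, stood at 0, 326, 196 and 253 CPM in unchallenged lung replicates 1, 4, 5 and 6. It had 0 UMIs at both tumor sites, as in unchallenged lung replicate 1. Pooled over libraries and against a floor of 3 UMIs per tissue, this is at least 28.6-fold lower in lung metastasis and at least 104-fold lower in primary tumor. Of 6 NK genes tested, 0 were called lower in lung metastasis and 1 in primary tumor. The T cell and B cell lists stayed within 0 to 6.96 and 76.6 to 100 CPM at the tumor sites, against 17.7 to 126 and 149 to 438 in unchallenged lung. The fibroblast list summed to 0 to 270 CPM in unchallenged lung, 12.4 to 191 in lung metastasis and 29.4 to 85.9 in primary tumor. In lung metastasis replicate 6, 4 of 10 monocytes carried UMIs of 2 or more fibroblast genes. For alveolar type 2 cells it was 8 of 10, and for club and ciliated cells 9 of 10. In unchallenged lung these 3 shares were 0% to 5.60%, 7.41% to 75.9% and 0.926% to 75.1%.

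The first question was how classical monocytes of lung metastasis and of primary tumor differ from those of unchallenged lung. Genes of glycolysis and hypoxia, the arginase gene *Arg1*, the matrix genes *Thbs1* and *Spp1*, the chemokine gene *Cxcl3* and the complement receptor gene *C3ar1* were called higher in the summed monocytes of both tumor sites. The chemokine genes *Ccl2*, *Ccl7* and *Ccl12* were too, but their lung metastasis calls were lost without replicate 1-3. UMIs of *Cxcl3* lay in only 2 to 5 monocytes of each tumor library compared. Of 7570 genes tested, 116 (1.53%) were called between lung metastasis and unchallenged lung at an edgeR adjusted p below 0.05, of which 110 (1.45%) were higher in metastasis and 6 (0.0793%) lower. Between primary tumor and unchallenged lung 165 genes (2.18%) were called, of which 132 (1.74%) were higher in primary tumor and 33 (0.436%) lower. These counts are over all genes tested, genes of the rule included, and nothing is read from them about those. Libraries of the tissues compared did not overlap for 115 of the 116 and 164 of the 165 called genes. No overlap was also a condition for the genes named by size of change. Where given below it describes the levels and adds no support to a call. The median log2 fold change over all genes tested was -0.10 and -0.08. The counts rest on few libraries: without lung metastasis replicate 6 the first fell to 36, without primary tumor replicate 1-3 or replicate 4 the second fell to 18 or 40, and without unchallenged lung replicate 6 they became 247 and 383. Removing unchallenged lung replicate 6 also lowered the share of calls that were higher at the tumor site, from 94.8% to 83.0% in lung metastasis and from 80.0% to 66.6% in primary tumor. Among the named genes, 21 of 59 calls in lung metastasis and 13 of 70 in primary tumor were kept whichever of the 8 libraries was left out.

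The list of glycolysis and hypoxia genes held the most calls. Of 28 members tested, 19 rose in lung metastasis and 19 in primary tumor and none fell, with median log2 fold changes of 2.02 and 1.68. Cells respond to low oxygen through the factor HIF-1, whose targets include glucose transport, the enzymes of glycolysis, the angiogenic factor VEGFA and the prolyl hydroxylase EGLN3 that helps degrade HIF. The promoters of 3 members are shown because they hold the letters ACGTG, a core of the hypoxia response element, and had the largest mean change of the members that do. They are the 250 bases before the RefSeq transcription start, written 5′ to 3′ on the strand of the gene, with ACGTG or its reverse form CACGT in capitals, on the GRCm38 build: chr12:54203875-54204124 (minus strand) for *Egln3*, chr8:45999851-46000100 (minus strand) for *Ankrd37*, an ankyrin repeat gene, and chr4:119108495-119108744 (plus strand) for *Slc2a1*, the glucose transporter GLUT1.
Egln3: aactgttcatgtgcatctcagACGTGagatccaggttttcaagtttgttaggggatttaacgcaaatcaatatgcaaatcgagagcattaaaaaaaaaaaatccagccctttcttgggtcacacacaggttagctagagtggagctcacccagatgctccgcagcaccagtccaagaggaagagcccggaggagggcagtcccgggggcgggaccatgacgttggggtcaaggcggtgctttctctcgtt
Ankrd37: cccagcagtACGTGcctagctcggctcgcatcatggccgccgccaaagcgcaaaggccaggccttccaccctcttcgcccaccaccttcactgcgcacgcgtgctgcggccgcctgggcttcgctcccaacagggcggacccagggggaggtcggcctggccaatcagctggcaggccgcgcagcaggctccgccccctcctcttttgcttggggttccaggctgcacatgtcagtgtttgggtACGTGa
Slc2a1: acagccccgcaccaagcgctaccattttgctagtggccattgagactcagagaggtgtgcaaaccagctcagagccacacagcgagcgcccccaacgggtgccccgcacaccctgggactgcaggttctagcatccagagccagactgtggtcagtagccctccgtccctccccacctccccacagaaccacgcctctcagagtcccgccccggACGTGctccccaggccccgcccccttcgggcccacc
The motif stood 229 bases before the start of *Egln3*, 241 and 6 before that of *Ankrd37* and 36 before that of *Slc2a1*. ACGTG on either strand, which overlaps the E-box CACGTG, was found in the windows of 15 of the 24 members tested that have one (62.5%), against 26.8% of 6090 tested genes and 18.5% of 27025 genes with a window. *Slc2a3*, *Bnip3l*, *Ero1l* and *Ndrg1* had no window. A match of letters is a description and not a binding site.

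*Egln3* was nearly absent from monocytes of unchallenged lung, at 0, 1.00, 0.393 and 2.04 CPM in replicates 1, 4, 5 and 6. It reached 87.8 and 225 CPM in lung metastasis replicates 1-3 and 6 and 67.2 and 55.8 in primary tumor replicates 1-3 and 4. All 4 tumor libraries thus lay above all 4 lung libraries, with log2 fold changes of 6.71 ± 0.57 (edgeR adjusted p = 0.000101) and 5.47 ± 0.53 (adjusted p = 0.000417). *Slc2a1* stood at 7.24, 8, 13 and 15 CPM in unchallenged lung, at 123 and 577 in lung metastasis and at 150 and 150 in primary tumor. Its log2 fold changes were 4.76 ± 0.51 (edgeR adjusted p = 0.000377) and 3.62 ± 0.48 (adjusted p = 0.00212), and the groups did not overlap. The primary tumor call was lost without replicate 1-3, with an adjusted p of 0.0550. *Ankrd37* stood at 3.62, 5.00, 3.14 and 3.52 CPM in unchallenged lung, at 70.2 and 166 in lung metastasis and at 121 and 31.5 in primary tumor. It rose by 4.88 ± 0.60 and 4.41 ± 0.52, and these calls were lost without lung metastasis replicate 6 (edgeR adjusted p = 0.0552) and without primary tumor replicate 1-3 (adjusted p = 0.0986).

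Enzymes of glycolysis moved by less. *Pgk1*, phosphoglycerate kinase, was even across unchallenged lung at 145, 142, 134 and 141 CPM and reached 614 and 1202 in lung metastasis and 666 and 444 in primary tumor. Its log2 fold changes were 2.68 ± 0.31 (edgeR adjusted p = 0.000602) and 1.99 ± 0.30 (adjusted p = 0.00463), the second of which was lost without primary tumor replicate 1-3 (adjusted p = 0.213). *Ldha*, the lactate dehydrogenase subunit, stood at 206, 182, 108 and 142 CPM in unchallenged lung, at 566 and 1290 in lung metastasis and at 971 and 643 in primary tumor. Its tumor levels were above every lung library at both sites, with log2 fold changes of 2.54 ± 0.37 and 2.36 ± 0.36. *Aldoa*, *Pfkl*, *Tpi1*, *Gapdh*, *Pkm* and *Pgam1* also rose at both sites, while *Gpi1* passed in lung metastasis only and was not called between the sites. Without lung metastasis replicate 6 the metastasis calls of *Ldha* and of these enzymes other than *Tpi1* were lost, and without primary tumor replicate 1-3 the primary tumor calls of *Ldha* and of all 6 enzymes were lost. *Mif*, a cytokine gene that is also a target of HIF-1, stood at 94.1, 87.0, 44.4 and 58.4 CPM in unchallenged lung, at 645 and 713 in lung metastasis and at 596 and 485 in primary tumor, with log2 fold changes of 3.31 ± 0.32 (edgeR adjusted p = 0.000246) and 2.99 ± 0.31 (adjusted p = 0.000448). *Bnip3*, a mitophagy gene, rose by 3.80 ± 0.37 and 2.82 ± 0.35. *Egln3*, *Mif* and *Bnip3* kept their calls at both sites whichever library was left out, and so did *Slc2a1*, *Pgk1*, *Tpi1* and *Ero1l*, an oxidase of the endoplasmic reticulum, in lung metastasis. *Hif1a* itself stood at 72.9 to 119 CPM in unchallenged lung, at 369 and 479 in lung metastasis and at 307 and 272 in primary tumor, and its calls were lost without lung metastasis replicate 6 and without either primary tumor library. *Vegfa*, an endothelial growth factor, stood at 0, 1.00, 2.36 and 24.5 CPM in unchallenged lung, at 206 and 371 in lung metastasis and at 121 and 121 in primary tumor, with log2 fold changes of 4.73 ± 0.78 (edgeR adjusted p = 0.00847) and 3.52 ± 0.73 (adjusted p = 0.0285). The lung metastasis call of *Vegfa* was lost without either metastasis library, and its primary tumor call without unchallenged lung replicate 5 or any of the 4 tumor libraries, with adjusted p of up to 0.208 and 0.318.

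The call count of this list moved with the libraries: in lung metastasis it was 7 without replicate 6 and 0 when at least 4 markers were asked for, which leaves 1 metastasis library, and in primary tumor it was 3 without replicate 1-3 and 11 without replicate 4. The deposited library names give 3 runs, and within a run only 1 library per tumor site could be set beside lung, with no test. In run 1, 27 of 28 members were higher in lung metastasis replicate 1-3 than in unchallenged lung replicate 1 and 24 of 28 in primary tumor replicate 1-3, while 52.1% and 51.2% of all genes tested were higher. In run 2, 26 of 28 were higher in primary tumor replicate 4 than in unchallenged lung replicate 4 (47.8% of all genes), and in run 3, 27 of 28 in lung metastasis replicate 6 than in unchallenged lung replicate 5 (43.5% of all genes). The same list, fitted on all other cells of these libraries, had median log2 fold changes of 1.53 in lung metastasis and 1.95 in primary tumor, and in C1q cells 1.76 and 1.72, so positive medians were measured in other cells too. For *Vegfa* the log2 fold changes in all other cells were -0.49 and -0.17.

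**Figure D2:**
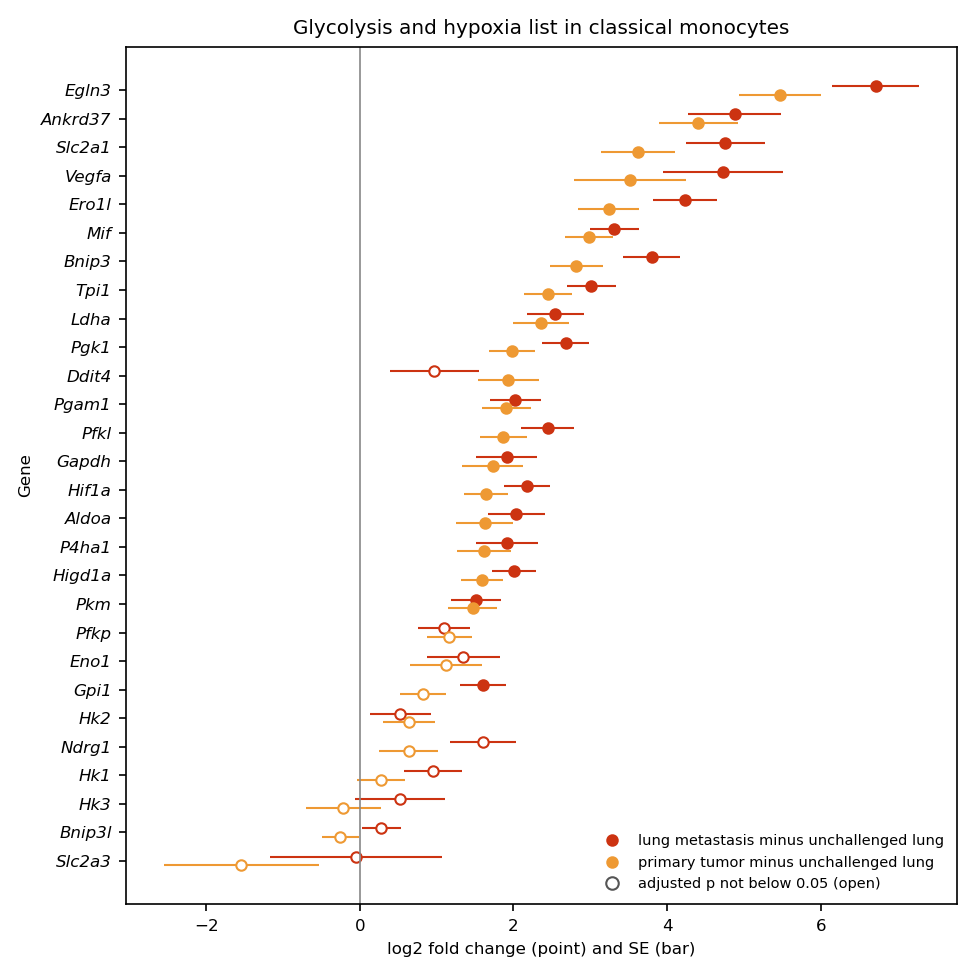
Log2 fold change of each of the 28 glycolysis and hypoxia genes tested in classical monocytes, lung metastasis (red) and primary tumor (orange) against unchallenged lung, with SE as bars and open points where the edgeR adjusted p was not below 0.05. At either site 19 of 28 points are filled and lie right of 0, with *Egln3* farthest right at 6.71 and 5.47.

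*Arg1*, which encodes arginase 1, an enzyme that breaks down arginine and is known from tumor-associated macrophages, had the largest change of the named genes in lung metastasis. It stood at 0, 1.00, 0.393 and 1.67 CPM in unchallenged lung, at 1720 and 5122 in lung metastasis and at 358 and 226 in primary tumor. The groups did not overlap, and the log2 fold changes were 11.46 ± 0.63 (edgeR adjusted p = 3.88e-06) and 7.92 ± 0.60 (adjusted p = 0.000129). Unchallenged lung had 11 *Arg1* UMIs among 8937959 in all. The ratio of pooled counts was thus 2121 in lung metastasis, with an exact 95% interval of 1180 to 4265. This interval and those of the other pooled ratios below cover counting error only and take each UMI as independent. In all other cells of these libraries its log2 fold changes were 7.95 and 8.35. In C1q cells they were 14.26 and 12.34, larger than in monocytes at both sites. In monocytes *Arg1* kept its call at both sites without any 1 of the libraries.

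Of the 27 members tested of the macrophage differentiation list, genes that rise as monocytes turn into macrophages, 10 rose in lung metastasis, 7 in primary tumor and none fell, with medians of 2.01 and 1.49. In all other cells of these libraries the medians of this list were 1.43 and 2.86, and in C1q cells 0.54 and 0.57. *Spp1*, osteopontin, stood at 0, 5.00, 2.36 and 45.2 CPM in unchallenged lung, at 2076 and 1368 in lung metastasis and at 892 and 851 in primary tumor. Its log2 fold changes were 6.63 ± 0.87 (edgeR adjusted p = 0.00153) and 5.65 ± 0.84 (adjusted p = 0.00445), and its highest lung library was replicate 6. Its primary tumor call was lost without replicate 1-3 (adjusted p = 0.0677). *Pf4*, a chemokine of platelets and of some macrophages, stood at 0.393 to 8.16 CPM in unchallenged lung, at 456 and 440 in lung metastasis and at 44.0 and 342 in primary tumor. The platelet genes *Ppbp* and *Itga2b* had at most 18.2 and 0 CPM, without TMM scaling, in the tumor libraries compared. Of these libraries only lung metastasis replicate 6 had UMIs of *Gp9*, another platelet gene. The highest cell held 29.8% and 64.4% of the *Pf4* UMIs in lung metastasis and 69.4% and 76.6% in primary tumor. The primary tumor call of *Pf4* was lost without replicate 4 (edgeR adjusted p = 0.130). *Fabp5* and *Hmox1*, for a fatty acid carrier and heme oxygenase, were called in lung metastasis and not in primary tumor or between the sites, at 158 and 2062 CPM and at 241 and 2971 CPM in replicates 1-3 and 6. In replicate 6, 1 of the 10 cells held 75.4% of the *Fabp5* UMIs and 73.0% of the *Hmox1* UMIs. Both calls were lost without replicate 6, with adjusted p of 0.666 and 0.237. *Trem2*, *Mmp12*, *Ctsl* and *Stab1* were also called in lung metastasis, and *Ms4a7*, *Mmp14* and *Stab1* in primary tumor, and each of these calls was lost without at least 1 library. Without unchallenged lung replicate 6 the list had 17 and 16 calls, without lung metastasis replicate 6 it had 4 in metastasis, and without primary tumor replicate 1-3 or 4 it had 3 or 2 in primary tumor. *C1qa* is a gene of the rule, so its levels given above depend on the gate and cannot be set against this list. The part of C1q RNA in the result was not tested.

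*Thbs1*, thrombospondin 1, stood at 32.6, 38.0, 18.5 and 13.4 CPM in unchallenged lung, at 1580 and 3538 in lung metastasis and at 517 and 274 in primary tumor. The 3 tissues did not overlap, and the log2 fold changes against unchallenged lung were 6.76 ± 0.51 (edgeR adjusted p = 4.58e-05) and 4.08 ± 0.48 (adjusted p = 0.00105), the second of which was lost without primary tumor replicate 1-3 (adjusted p = 0.0504). *Timp1*, an inhibitor of matrix metalloproteinases, had 4 UMIs in unchallenged lung, and its pooled ratio was 127 in lung metastasis (95% interval 42.7 to 513) and 122 in primary tumor (45.6 to 461). Under the strict gate the lung metastasis change of *Timp1* turned to -1.23. This gate drops cells with UMIs of 2 or more genes of any 1 of several lists. They cover melanoma, NK, T, B and dendritic cells, and for neutrophils only *Csf3r*, *Cxcr2* and *Retnlg*. It adds no condition on fibroblast, endothelial, alveolar type 2, club, ciliated or alveolar macrophage genes. That gate kept 16 cells of lung metastasis replicate 1-3 and 2 of replicate 6, which is under the 10 needed. This change thus rests on replicate 1-3 alone, without the library with the higher *Timp1* level. *Adam8*, a cell surface protease, rose by 3.54 ± 0.44 and 2.87 ± 0.41, the second of which was lost without primary tumor replicate 1-3 (edgeR adjusted p = 0.104).

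**Figure D3:**
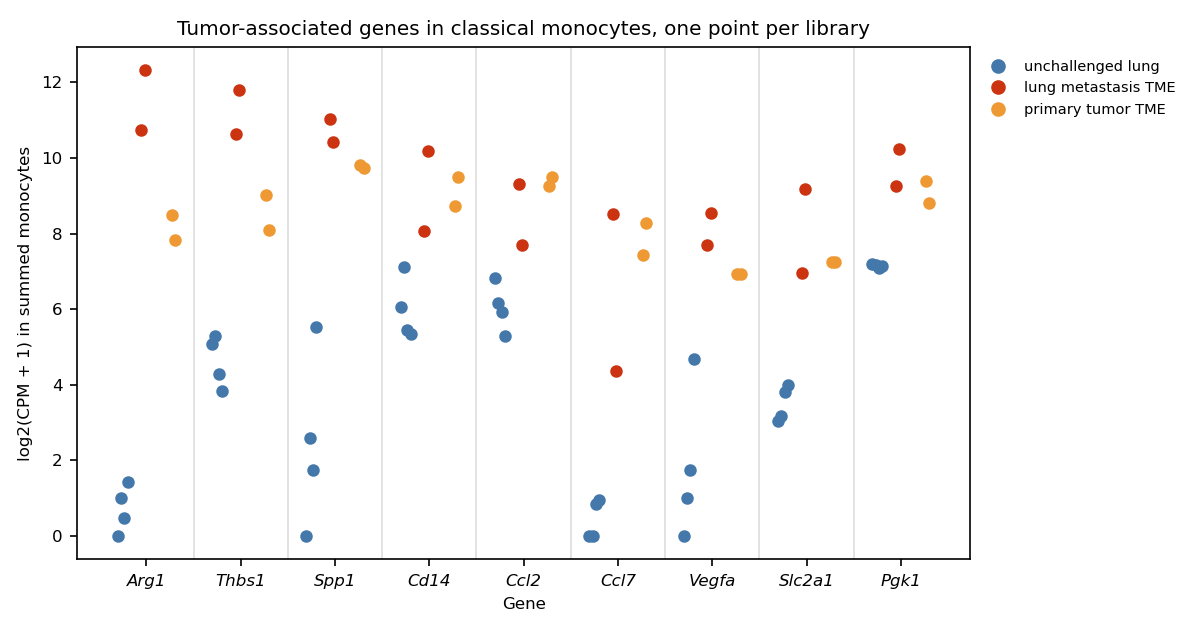
Levels of 9 genes in classical monocytes as log2(CPM + 1), 1 point per library, in unchallenged lung (blue, 4 libraries), lung metastasis TME (red, 2) and primary tumor TME (orange, 2). All 9 genes were picked from those called higher at both sites. The 4 tumor libraries lie above all 4 lung libraries for each gene, and *Arg1* is at or below 1.67 CPM in unchallenged lung against 226 to 5122 CPM in the tumor libraries.

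Chemokine genes were the next group. Of 13 chemokines tested, 4 rose in lung metastasis (*Ccl2*, *Ccl7*, *Ccl12* and *Cxcl3*), 7 rose in primary tumor (these 4 with *Ccl8*, *Cxcl2* and *Cxcl16*), and none fell. The list medians were 1.55 and 3.18 in monocytes, 1.39 and 3.27 in all other cells and 1.16 and 2.08 in C1q cells. *Ccl2*, *Ccl7*, *Ccl12* and *Ccl8* code for monocyte attractants and lie close together on chromosome 11 (GRCm38), *Ccl2* at chr11:82035571-82037453 and *Ccl8* at chr11:82115185-82116799. *Ccl2* stood at 112, 71.0, 59.3 and 38.2 CPM in unchallenged lung, at 632 and 205 in lung metastasis and at 611 and 715 in primary tumor. It was above every lung library in all 4 tumor libraries, with log2 fold changes of 2.72 ± 0.45 (edgeR adjusted p = 0.00847) and 3.33 ± 0.43 (adjusted p = 0.00175). The metastasis call was lost without lung metastasis replicate 1-3 (adjusted p = 0.340) or primary tumor replicate 4. *Ccl7* stood at 0, 0, 0.785 and 0.927 CPM in unchallenged lung, at 369 and 19.5 in lung metastasis and at 172 and 310 in primary tumor, and its metastasis call was lost without replicate 1-3 (adjusted p = 0.251). *Ccl12* had 3 UMIs in unchallenged lung and none in lung metastasis replicate 6, so its metastasis change came from replicate 1-3 alone and turned to -2.37 without that library, and its primary tumor call was lost without replicate 1-3 (edgeR adjusted p = 0.104). *Ccl8* had 1 UMI in unchallenged lung and 0 in lung metastasis, and reached 26.9 and 26.7 CPM in primary tumor, a pooled ratio of 230 with an exact 95% interval of 38.6 to 9373, and its call was lost without replicate 4 (edgeR adjusted p = 0.195). The calls of *Cxcl2* and *Cxcl16* were lost without either primary tumor library. *Cxcl3*, a neutrophil attractant, had 1 UMI in unchallenged lung, with pooled ratios of 1299 (223 to 52310) and 398 (68.6 to 15991). Its UMIs lay in 5 of 34 and 2 of 10 monocytes of lung metastasis replicates 1-3 and 6. In primary tumor replicates 1-3 and 4 they lay in 2 of 92 and 3 of 61, so the ratios rest on few cells.

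Receptor genes were tested as well. *C3ar1*, the receptor for complement C3a, stood at 3.62, 13, 1.96 and 3.52 CPM in unchallenged lung, at 114 and 166 in lung metastasis and at 127 and 165 in primary tumor. It was above every lung library in all 4 tumor libraries, with log2 fold changes of 4.84 ± 0.56 (edgeR adjusted p = 0.000665) and 4.93 ± 0.49 (adjusted p = 0.000417), and both calls were kept without any 1 of the libraries. The log2 fold changes of *C3ar1* were 0.30 and 0.03 in C1q cells and 2.97 and 4.92 in all other cells of these libraries. After thinning to 1000 UMIs a *C3ar1* UMI was found in 11.8%, 0%, 10.9% and 16.4% of monocytes of lung metastasis replicates 1-3 and 6 and primary tumor replicates 1-3 and 4, against 2.72%, 0.909%, 7.59% and 11.2% of cells with a *Pecam1* UMI. The chemokine receptor gene *Ccr1* and the C5a receptor gene *C5ar1* were called in primary tumor, with log2 fold changes of 2.39 ± 0.50 (edgeR adjusted p = 0.0287) and 2.89 ± 0.66 (adjusted p = 0.0461). These calls were lost in 5 and 7 of the 8 fits that leave out 1 library, with adjusted p of up to 0.385 and 0.505.

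Of 29 classical monocyte genes tested, 6 rose in lung metastasis, 4 rose in primary tumor and none fell, and the list medians of -0.16 and -0.14 lay near that of all genes. *Fn1*, fibronectin, stood at 1350, 744, 1425 and 785 CPM in unchallenged lung, at 2585 and 4193 in lung metastasis and at 970 and 985 in primary tumor. Both metastasis libraries lay above the other 6, with log2 fold changes of 1.65 ± 0.35 (edgeR adjusted p = 0.0375) and -0.14 ± 0.37 (adjusted p = 0.888), and its metastasis call was lost in 6 of the 8 fits that leave out 1 library. *Vcan*, the proteoglycan versican, stood at 116, 69.0, 111 and 53.8 CPM in unchallenged lung, at 470 and 264 in lung metastasis and at 327 and 245 in primary tumor. *Cd14*, a lipopolysaccharide co-receptor, stood at 65.2, 138, 42.4 and 39.9 CPM, at 268 and 1153 and at 423 and 728, with log2 fold changes of 3.30 ± 0.59 (edgeR adjusted p = 0.0145) and 3.03 ± 0.57 (adjusted p = 0.0169). In lung metastasis replicate 6, 1 cell held 83 of the 118 *Cd14* UMIs (70.3%). The calls of *Vcan* and *Cd14* were lost without single tumor libraries, with adjusted p of up to 0.392 and 0.567. *Itgam*, whose call was lost in 6 of the 8 fits that leave out 1 library (adjusted p of up to 0.305), *Clec4e* and *Thbs1* completed the 6 genes, and *Vcan*, *Cd14*, *Clec4e* and *Thbs1* were the 4 of primary tumor.

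Pattern recognition receptors gave 4 calls of 22 in lung metastasis and 5 in primary tumor. The C-type lectin genes *Clec4n* (Dectin-2), *Clec4d* and *Clec4e* (Mincle), neighbors on chromosome 6 that sense fungal and mycobacterial glycolipids, were among them at both sites, with log2 fold changes of 3.21 ± 0.59, 3.30 ± 0.37 and 1.76 ± 0.34 in lung metastasis and 3.22 ± 0.53, 2.37 ± 0.35 and 2.02 ± 0.31 in primary tumor. *Cd14* was the fourth, and *Clec5a* the fifth in primary tumor. Only the metastasis call of *Clec4d* was kept without any 1 of the libraries. These genes are also expressed by neutrophils, whose list summed to 9464 and 191 CPM in metastasis replicates 1-3 and 6, where *Clec4d* stood at 298 and 411 CPM. The part of neutrophil RNA in these calls was not tested. Among 19 inflammatory mediators *Osm*, oncostatin M, rose at both sites and *Tnfsf9*, the 4-1BB ligand, in primary tumor, while *Il1b* at 109 to 449 CPM in unchallenged lung, 443 and 1622 in lung metastasis and 585 and 1285 in primary tumor did not pass (adjusted p = 0.110 and 0.0888). *Ier3*, an immediate early gene, rose by 4.24 ± 0.48 and 3.60 ± 0.46, and was the single call among 24 immediate early and heat shock genes at either site. Of 14 checkpoint genes *Havcr2* (TIM-3) and *Cd80* rose in primary tumor, of 6 Fc receptors the inhibitory *Fcgr2b*, and of 20 growth factor receptors *Il4ra*. The calls of *Osm*, *Tnfsf9*, *Havcr2*, *Cd80*, *Fcgr2b* and *Il4ra* were all lost without primary tumor replicate 1-3, and that of *Osm* in lung metastasis without replicate 6.

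Fewer of the called genes were lower than higher at the tumor sites, but with no filter on low counts 47.4% of the primary tumor calls were higher. In primary tumor *Lyz1*, a lysozyme gene beside its near copy *Lyz2* on chromosome 10, stood at 54.3, 74.0, 47.9 and 39.7 CPM in unchallenged lung, at 4.39 and 9.77 in lung metastasis and at 1.22 and 0 in primary tumor. Primary tumor had 1 UMI, a pooled ratio 60.9-fold lower with an exact 95% interval of 10.9 to 2410, and the call was lost without replicate 1-3 (edgeR adjusted p = 0.0504). Its copy *Lyz2* at 7911 to 35033 CPM in unchallenged lung, 9483 and 7086 in lung metastasis and 15827 and 14396 in primary tumor did not pass, and reads of the pair can be hard to separate. *Ace*, angiotensin-converting enzyme, and *Spn*, CD43, which are high in nonclassical monocytes, fell in primary tumor by 1.86 ± 0.34 and 1.85 ± 0.42 on the log2 scale. These 2 were the calls among 14 nonclassical genes tested there, none was called in lung metastasis, and both calls were lost without primary tumor replicate 1-3 or 4, that of *Spn* also without unchallenged lung replicate 5 or either metastasis library. Nonclassical cells were 2024 of 37386 cells in unchallenged lung and 29 of 6477 in primary tumor, and the part of their RNA in this result was not tested. *Itga1*, an integrin subunit, and *Flt1*, a VEGF receptor, also fell in primary tumor, by 2.61 ± 0.45 and 2.37 ± 0.42. *Nup210*, *Plekhg1*, *Bbc3*, *Ldlrad3*, *Ccdc88c*, *Padi2* and *Abcd2* made up the 10 genes with the largest fall, and none of these calls but that of *Lyz1* was kept without primary tumor replicate 4. In lung metastasis the 6 lower genes were *Trmt1l*, *Heatr5a*, *Far1*, *Nhsl2*, *Xrn1* and *Ikzf1*, and all 6 calls were lost without either metastasis library. *Trmt1l* had 0 UMIs in lung metastasis against 346 in unchallenged lung, which is at least 4.53-fold lower against a floor of 3 UMIs over the tissue.

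Interferon-stimulated and MHC class II genes gave no calls by edgeR at either tumor site. Of 47 interferon-stimulated genes, 10 in lung metastasis (all lower) and 8 in primary tumor (2 higher and 6 lower) had an unadjusted p below 0.05 by edgeR, and the medians were -0.95 and -0.40. Of all 7570 genes tested, 1075 in lung metastasis and 1442 in primary tumor had such a p, so nothing is read from these counts. DESeq2 called 0 of them in lung metastasis. *Ifitm3*, the most abundant of them, stood at 1312 to 5448 CPM in unchallenged lung, at 3770 and 2834 in lung metastasis and at 4554 and 3587 in primary tumor, with log2 fold changes of -0.23 ± 0.49 and 0.07 ± 0.48. Of 7 MHC class II genes, 0 and 2 had an unadjusted p below 0.05 and DESeq2 called 0 at both sites. *Cd74*, the invariant chain, stood at 1705 to 5485 CPM, at 2295 and 4946 and at 7609 and 6779, with log2 fold changes of -0.10 ± 0.49 and 0.90 ± 0.47. With 2 libraries per tumor site these values do not show that the genes were alike. Of 9 cell cycle genes the tubulin gene *Tubb5* was called in lung metastasis and none in primary tumor, and the call of *Tubb5* was lost in 7 of the 8 fits that leave out 1 library. After thinning to 1000 UMIs, a *Mki67* or *Top2a* UMI was found in 0 to 3.14% of monocytes of the unchallenged lung libraries, in 0% of those of lung metastasis replicates 1-3 and 6 and in 0% and 3.28% of those of primary tumor replicates 1-3 and 4.

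Monocytes of the tumor sites were then compared with each other. No gene was called between lung metastasis and primary tumor by edgeR, with 351 genes at an unadjusted p below 0.05, and DESeq2 called 3 (*Arg1*, *Thbs1* and *Fn1*). All 3 were higher in lung metastasis, with edgeR log2 fold changes of 3.54 ± 0.56 (adjusted p = 0.297), 2.68 ± 0.55 (adjusted p = 0.978) and 1.79 ± 0.43 (adjusted p = 1). *Arg1* was the call of edgeR when unchallenged lung replicate 6 was left out. The libraries of the sites did not overlap for these genes, with 1720 and 5122 CPM against 358 and 226 for *Arg1*. With 2 libraries a site, this comparison cannot show that the sites are alike.

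The RNA behind these changes was spread unevenly over cells. *Arg1* was found in 11 of 34 and 6 of 10 monocytes of lung metastasis replicates 1-3 and 6 and in 14 of 92 and 10 of 61 of those of primary tumor replicates 1-3 and 4, and the cell with the most held 18.1%, 38.5%, 36.9% and 28.0% of its UMIs. After thinning to 1000 UMIs the share of monocytes with an *Arg1* UMI was 26.5%, 40.0%, 7.61% and 9.84%, against 4.76%, 1.36%, 5.06% and 8.75% of cells with a *Pecam1* UMI. Median depths were 7452, 12091, 9666.5 and 7408 UMIs in monocytes and 2492, 3605, 5971 and 6660 in cells with a *Pecam1* UMI. The monocyte share was above that of cells with a *Pecam1* UMI in both lung metastasis libraries, while in primary tumor the shares lay close. Of the cells with a *Pecam1* UMI, 15.9% and 75.7% carried at least 2 C1q genes in primary tumor replicates 1-3 and 4, so they are not free of macrophage RNA, and the part of background in the primary tumor levels of *Arg1*, *C3ar1* and *Thbs1* was not tested. *Thbs1* after thinning was found in 23.5%, 50.0%, 17.4% and 14.8% of monocytes, against 4.08%, 7.27%, 15.2% and 10.8% of cells with a *Pecam1* UMI, a type that can express it. Chemokine RNA was also spread unevenly. The highest cell held 82.1% and 100% of the *Ccl7* UMIs of lung metastasis replicates 1-3 and 6 and 49.6% and 50.8% of those of primary tumor replicates 1-3 and 4. For *Cxcl3* it held 78.8%, 66.7%, 91.7% and 55.6%, and for *Ccl2* 36.8%, 76.2%, 47.6% and 33.6%, close to the 36.6%, 65.0%, 57.1% and 35.3% of *Spp1*. Folds of these genes thus rest on few cells, while the highest cell held 5.03% to 25.8% of the *Ldha* UMIs. Other glycolysis and hypoxia genes were less evenly spread in lung metastasis replicate 6. There the highest cell held 41.1% of the *Mif*, 40.7% of the *Slc2a1*, 36.8% of the *Vegfa* and 34.8% of the *Egln3* UMIs.

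**Figure D4:**
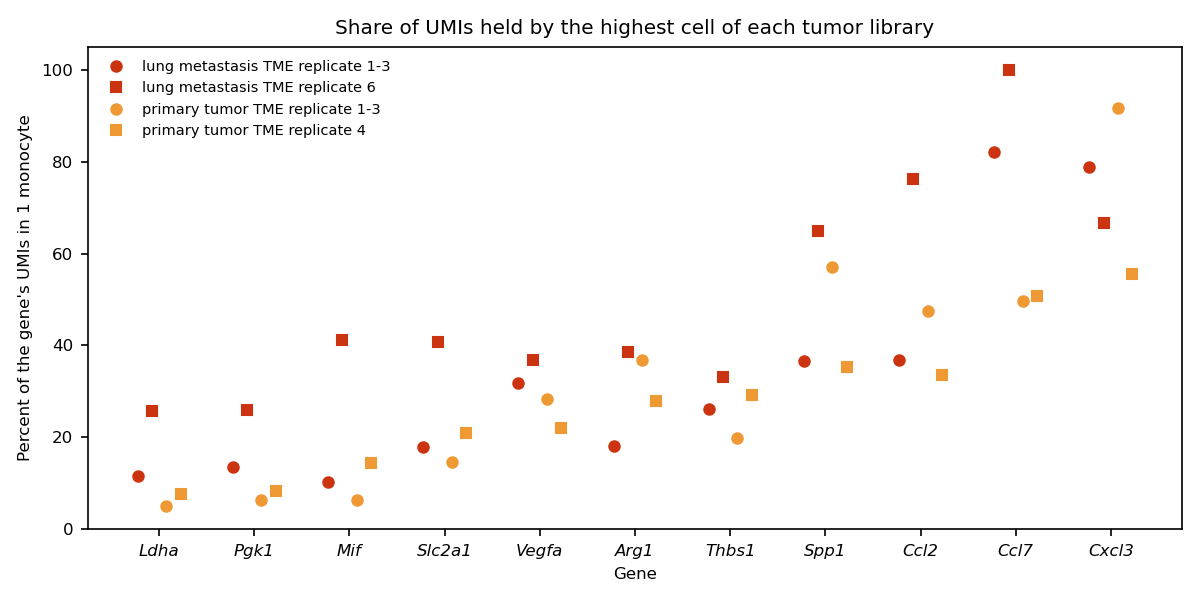
Percent of the UMIs of a gene that lie in the 1 monocyte with the most, for 11 genes in the lung metastasis TME libraries (red, replicate 1-3 as circles and replicate 6 as squares) and the primary tumor TME libraries (orange, replicate 1-3 as circles and replicate 4 as squares). *Ldha* and *Pgk1* lie at 26.0% or less, while *Ccl7* and *Cxcl3* lie at 49.6% or more. *Mif*, *Slc2a1* and *Vegfa* reach 41.1%, 40.7% and 36.8% in lung metastasis replicate 6.

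Within each library, classical monocytes were set beside C1q cells (3351 in all, with at least 2 C1q genes) and nonclassical cells (2154, with at least 2 nonclassical genes). These gates were cut on correlated genes, so the values are a description. Over 8 libraries, the log2 ratio of monocytes to C1q cells on CPM plus 5 was 2.61 ± 1.10 (SD) for *Vcan*, 2.51 ± 1.02 for the haptoglobin gene *Hp* and 2.02 ± 0.57 for the interferon factor gene *Irf7*, all higher in 8 of 8 libraries. *Ms4a7* at -4.02 ± 1.29, the mannose receptor gene *Mrc1* at -3.67 ± 1.61 and *Timp2* at -2.67 ± 0.72 were lower in 8 of 8. Over the 6 libraries with enough nonclassical cells, *Fn1* at 3.74 ± 1.19, *Vcan* at 3.62 ± 0.96 and *S100a10* at 2.19 ± 0.72 were higher in 6 of 6. *Eno3* at -3.77 ± 1.00, *Ace* at -2.85 ± 0.68 and *Spn* at -2.50 ± 0.63 were lower in 6 of 6. *Vcan* marks blood monocytes, *Ms4a7* and *Mrc1* macrophages, and *Ace* and *Spn* nonclassical monocytes, and the 3 gates differ in them although the rule did not use them. *Arg1* did not follow this order, with a ratio to C1q cells of 0.40 ± 0.61.

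The share of classical cells among classical monocytes, C1q cells and nonclassical cells does not depend on how many leukocytes a sort let through, if the gate treats the 3 alike. It was 20.1%, 29.4%, 31.3% and 59.2% in unchallenged lung replicates 1, 4, 5 and 6, with exact 95% intervals of 14.1% to 27.3%, 24.8% to 34.4%, 28.6% to 34.1% and 57.7% to 60.8% that cover counting error only. In lung metastasis replicates 1-3, 4, 5 and 6 it was 18.0%, 6.98%, 13.5% and 13.3%, so all 4 lay below all 4 lung libraries. Their intervals were 12.8% to 24.2%, 1.46% to 19.1%, 4.54% to 28.8% and 6.58% to 23.2%. Each of these overlapped the interval of unchallenged lung replicate 1. In primary tumor it was 23.4% in replicate 1-3 and 2.81% in replicate 4, the library with the most C1q RNA in other cells. Replicates 5 and 6 of primary tumor had under 20 cells in the denominator and were not used. The mean was 13% ± 4.53 (SD, n = 4) in lung metastasis and 35.0% ± 16.9 (n = 4) in unchallenged lung, a difference of -22.1 percentage points, and of -14.1 points without both replicate 6 libraries. Primary tumor, at 13.1% ± 14.5 (n = 2), differed from unchallenged lung by -21.9 points and lung metastasis from primary tumor by -0.13 points. The share is cut with genes of the rule, whose C1q condition weighed unequally on the tissues as given above, so it is a description without a test.

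**Figure D5:**
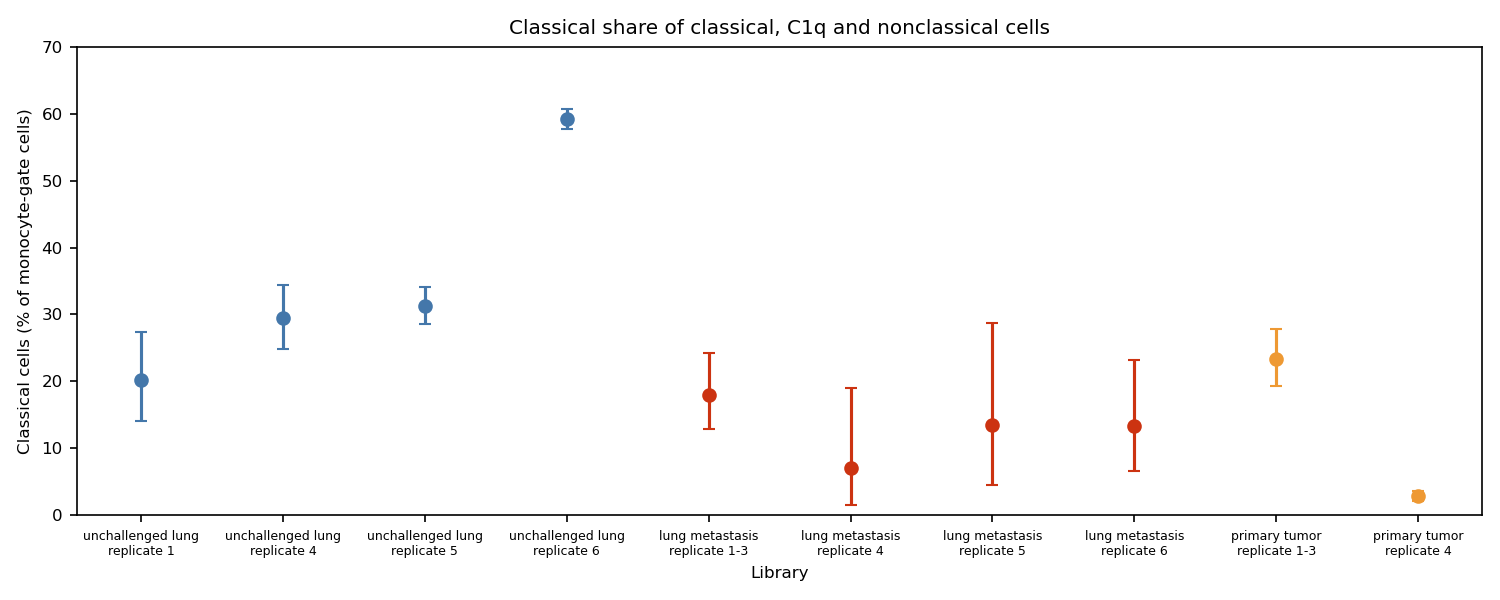
Percent of classical cells among classical, C1q and nonclassical cells, 1 point per library with its exact 95% interval, in unchallenged lung (blue), lung metastasis (red) and primary tumor (orange). Unchallenged lung replicate 6 is highest at 59.2%, the 4 lung metastasis libraries lie between 6.98% and 18.0%, and primary tumor replicate 4 is lowest at 2.81%.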

How the data were processed

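Single cells were profiled with the 10x 3′ assay. The counts deposited by the authors are UMIs of 1 gene in 1 cell, made with Cell Ranger 6.1.1 and Seurat 3.2.2 on GRCm38 per the labels and not normalized, after the authors had removed cells at the extremes of genes, mitochondrial and ribosomal content. The mitochondrial percent of each cell deposited by the authors was described only. A deposited table of log-normalized values was not used. For all 110283 barcodes the summed counts equal the deposited total. Names with identical counts were merged, which left 12 libraries of TME and unchallenged lung.

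The cells and gene lists were chosen with earlier results of these data known. UMIs were summed over the gated cells of a library and tested with edgeR 4.0.16 (filterByExpr, TMM, quasi-likelihood F test, 1 fit of 3 tissues, Benjamini-Hochberg over all genes tested, called at an adjusted p below 0.05) in R 4.3.3 with limma 3.58.1. At least 20 cells per library were planned, but this left lung metastasis with 1 library, so the planned fallback of 10 was used. The same fit was made on C1q cells and on all other cells. Monocyte libraries held 109734 to 5107176 UMIs. A permutation test planned for percent shares is not given, as the shares are cut with genes of the rule. By the deposited names only the 1-3 pools of the tumor sites, of the libraries compared, share mice, and the replicate numbers did not otherwise pair the libraries (correlations of deviations -0.17 to 0.23 over 3117 genes). The fit was tested on simulated data. Alternatives were DESeq2 1.42.0, another scaling, no filter, other gates, thinning to 1000 UMIs, the replicate block and leaving out libraries.

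Named genes are those of the rule, the 10 with the largest change in either direction of each comparison (called, mean of at least 20 CPM, no overlap), and in each list the called members first by adjusted p, then by level, with others whose role a count needs. Promoter windows are from a RefSeq table on GRCm38, and positions from the GENCODE annotation. Shares and tables were computed in Python 3.11.15 (scipy 1.17.1, numpy 2.4.6) and figures drawn with matplotlib 3.10.9. Results for some genes are not reported here.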

Additional observations from a re-analysis of the deposited data

Results flagged for a closer look

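Among 90 groups of 4 libraries checked for a library far from the other 3 (Dixon's gap over range above its 95% critical value), 12 stood out, where chance gives about 1 in 20. All 12 are monocyte gene levels in unchallenged lung, the only tissue with 4 libraries in the gene comparison, so no tumor gene level could be flagged. The rate of 1 in 20 does not hold for levels near 0, where a UMI in a single library is enough to stand out. Replicate 6 was high for Spp1 (45.2 CPM), Vegfa (24.5 CPM) and C5ar1 (66.0 CPM), and was the only library with a UMI of Cxcl3 and of Ptgds (0.185 CPM each). Replicate 1 was high for Aldoa (362 CPM), Clec5a (47.1 CPM), Xrn1 (101 CPM) and Ccl12 (3.62 CPM). Replicate 4 was high for C3ar1 (13 CPM) and low for Heatr5a (41.0 CPM). Replicate 5 was the only library with a UMI of Ccl8 (0.393 CPM). No cause was tested.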

How the results depend on the processing

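Against unchallenged lung, the 116 calls of lung metastasis became 363 with no filter on low counts, 200 with DESeq2, 36 with at least 20 cells throughout, 5 with at least 4 markers, 34 with the strict gate, 39 after thinning to 1000 UMIs (1729 genes tested) and 0 with replicates 5 and 6 alone. The 165 calls of primary tumor became 688, 262 and 83 with no filter, DESeq2 and thinning, and 527 without both replicate 6 libraries. The 0 calls between the sites became 30, 3 and 2 with no filter, DESeq2 and thinning, and 2 without both replicate 6 libraries. Leaving out 1 library gave 36 to 247, 18 to 383 and 0 to 1 calls. Calls higher at the tumor site made up 63.6% and 47.4% with no filter and 68.3% with DESeq2 in primary tumor, against 94.8% and 80.0%. With the replicate block the counts were 131, 151 and 0, and this block is a hint only: of the libraries compared, the numbers mark shared mice only in the 1-3 pools of the tumor sites. Of all recomputed values of the named genes 1649 kept their call, 620 lost it and 3 reversed: Ccl12 in lung metastasis (-2.37 without replicate 1-3, and -2.37 to 8.46 over all libraries left out in turn), Timp1 (-1.23 with the strict gate) and Osm (-1.51 with at least 4 markers). All 3 reversals come from fits with 1 lung metastasis library left, replicate 6 for Ccl12 and replicate 1-3 for Timp1 and Osm. The metastasis counts above for at least 20 cells, at least 4 markers, the strict gate and replicates 5 and 6 alone also rest on 1 metastasis library. The cause of the reversals was not tested.

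The difference in classical share between lung metastasis and unchallenged lung was -19.4 points with at least 2 markers, -19.4 with at least 50 cells, -31.8 with replicates 5 and 6 alone, -14.1 without both replicate 6 libraries, -55.1 without nonclassical cells in the denominator and -38.4 after thinning to 1000 UMIs, and -27.0 to -14.0 without 1 library. That of primary tumor was -60.4 without nonclassical cells in the denominator, -13.9 without both replicate 6 libraries, and -32.2 to -11.7 without 1 library. The difference between the sites reversed to 11.9 with at least 2 markers, 2.58 with at least 50 cells and 5.27 without nonclassical cells in the denominator, and was -10.4 to 10.1 without 1 library (1.87 without lung metastasis replicate 4, 10.1 without primary tumor replicate 1-3). The 20-cell and both-replicate-6 settings were chosen after seeing the data.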
